A study of Mus musculus with 13 samples.

Results

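RNA of sorted regulatory T cells (Tregs) that express Foxp3 was compared between mice with and without c-Rel, with 2 stages of Treg life in 1 model: de novo Tregs of the thymus and Tregs of the spleen. These are 8 of the 13 libraries of the series: 4 de novo libraries (2 wild type, 2 knockout) and 4 splenic ones (2 and 2). They were chosen by their labels, and the 5 libraries of thymic pre-Tregs were left out of the joint comparison. The wild-type groups are labelled cRel+/+Foxp3rfp and the knockout groups cRel-/-Foxp3rfp, all on the strain C57BL6/J, so every group carries the Foxp3rfp reporter. The labels give no treatment. The sources used here do not give age, sex, pooling of animals or sort gates. No label says that libraries of a group came from separate animals, and the p-values then reflect only how far these libraries spread, which may be technical. Stage coincides with tissue and with count table, and the stage term of the model takes these up together.

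c-Rel, the product of Rel, is a subunit of NF-kB, a family of transcription factors that wait in the cytoplasm bound to IkB proteins and enter the nucleus when the T cell receptor and its costimulators activate the IKK kinase complex. In the thymus c-Rel is known for its role in the induction of Foxp3, the factor that defines Tregs. NF-kB proteins bind short kappaB motifs in promoters and enhancers, and their known targets include survival genes of the Bcl2 family, cytokine receptors and feedback inhibitors of NF-kB itself.

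The libraries held 25122095 to 28235996 counts (de novo) and 32291272 to 35114430 counts (splenic), over 22048 genes listed in both tables, of which 12532 passed the filter on low counts. At these depths a floor of 3 counts lies between 0.0854 and 0.119 CPM, the usual counts scaled to library size. Levels are given in CPM for replicates 1 and 2 of a group, in that order, with no correction for gene length. A log2 fold change is the joint estimate of knockout over wild type with its standard error (SE); 1 unit is a doubling. Every adjusted p comes from edgeR's quasi-likelihood F test after Benjamini-Hochberg correction, and a gene was called, or is said to have risen or fallen, at an adjusted p under 0.05. Replicates varied with a common biological coefficient of variation of 0.0939 (de novo) and 0.131 (splenic). The 2 splenic knockout libraries differed more from each other than any other pair of replicates, with a chi-square per degree of freedom of 40.5 against 8.95 to 12.9 in the other pairs. The defining markers of the labelled cells were present in every library: Foxp3 lay between 658 and 894 CPM, Il2ra, which encodes the high-affinity IL-2 receptor chain, between 640 and 1394 CPM, and Ctla4 between 267 and 617 CPM.

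Rel itself was read at 99.1 and 96.7 CPM in the wild-type and 87.3 and 94.6 CPM in the knockout de novo libraries, and at 45.5 and 54.9 against 42.1 and 44.4 CPM in the splenic ones. In each stage both knockout libraries lay below both wild-type libraries, but the joint log2 fold change of −0.15 (SE 0.07) did not pass the test (adjusted p = 0.308). Counts summed over a whole gene cannot tell transcripts of a disrupted Rel gene from intact ones, and the genotype labels were therefore not checked by them.

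Without c-Rel, 360 of the 12532 genes tested rose over the 2 stages together (2.87%) and 289 fell (2.31%), and most of these changes were below 2-fold. Of the risen genes 72 changed at least 2-fold and 14 at least 4-fold in the joint estimate; of the fallen genes 92 and 35 did. At least a 2-fold change in each stage's own estimate was seen for 41 risen and 57 fallen genes. All 649 called genes had the same sign in both stages, which the joint estimate itself favours, since a common coefficient is large only where the stages go the same way. Knockout and wild-type libraries were fully apart, in the called direction, in both stages for 354 of 360 risen and 287 of 289 fallen genes. Over all genes tested, 8.91% were apart upwards and 9.89% downwards in both stages. The calls were made on these same libraries and favour such separation, so it is no independent support. Leaving out 1 library gave between 290 and 793 called genes. The count dropped to 367, 290, 307 and 423 without de novo knockout 1, de novo knockout 2, de novo wild type 1 and de novo wild type 2, and to 392 and 326 without splenic wild type 1 and 2; 230 genes, 129 risen and 101 fallen, were called in every one of these 8 fits.

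**Figure D1:**
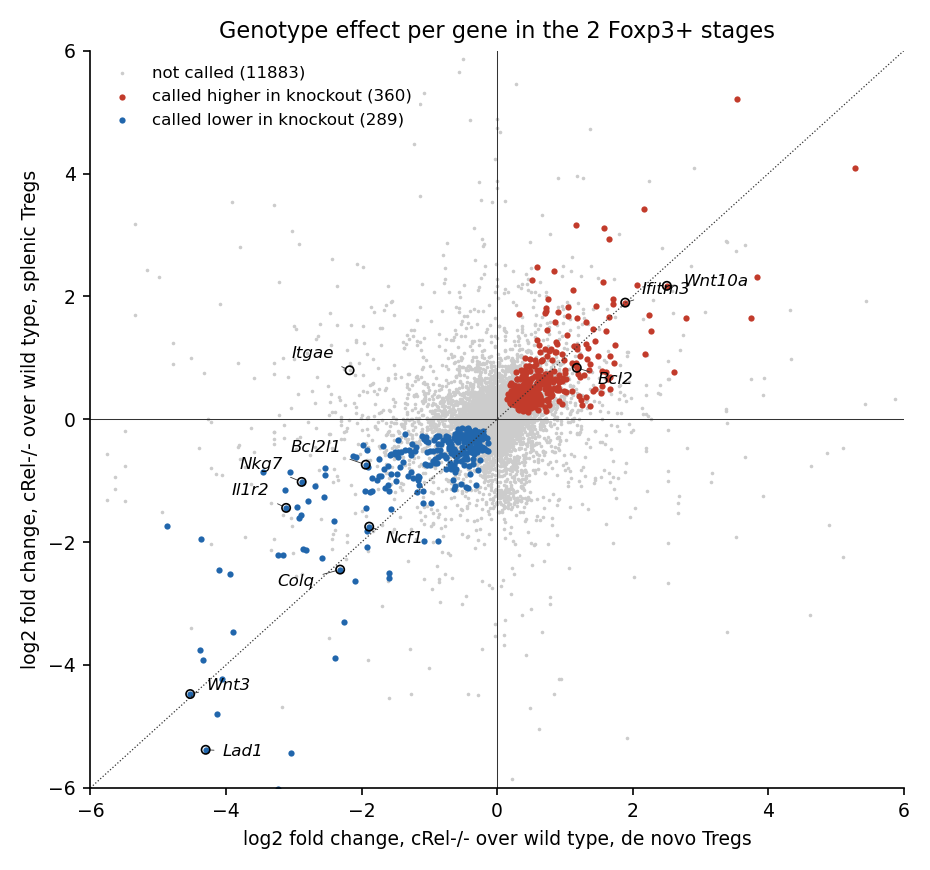
Log2 fold change of cRel-/- over wild type for each gene tested, in de novo Tregs (x axis) and splenic Tregs (y axis), both from a fit of the 4 group means. Red points are the 360 genes called higher and blue points the 289 called lower in the joint fit, grey points the other genes; the dotted line marks equal change, and 41 genes, 10 of them called, lie outside the axes. All called genes lie in the lower left or upper right part, while Itgae, which was not called jointly, lies at −2.18 in de novo and 0.80 in splenic Tregs.

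The stages contributed unequally. In single-stage fits, de novo Tregs alone gave 346 risen (2.92%) and 420 fallen genes (3.54%) of 11855 tested, and splenic Tregs alone 75 (0.612%) and 93 (0.758%) of 12264. The stages' own calls are read against each other here because they share no library. Of the genes that rose in de novo Tregs and were tested in spleen, 298 of 343 (86.9%) also had a positive log2 fold change there, and 242 had fully separate libraries in that direction (70.6%, against 22.9% of all genes tested). Of those that fell, 339 of 408 (83.1%) were negative in spleen, and 250 were apart (61.3%, against 23.4%). Read the other way, 56 of 71 genes risen in spleen were positive in de novo Tregs (78.9%), and 49 were apart there (69.0%, against 20.55%). Of 93 genes fallen in spleen, only 51 were negative in de novo Tregs (54.8%), and 45 were apart there (48.4%, against 26.6%). Over the 11639 genes tested in both stages alone, 49.9% were positive and 50.1% negative in spleen. In de novo Tregs 49.4% were positive and 50.6% negative, so the sign share of the splenic falls lay near that of all genes. Genes called the same way in both stages alone numbered 36 risen, which is 10.4% of the de novo and 48% of the splenic rises, and 34 fallen, which is 8.10% and 36.6% of the falls. Across all genes tested jointly the 2 log2 fold changes had a Pearson correlation of 0.256; this is a correlation across genes, which are not independent replicates. The splenic counts depended on the knockout libraries: without splenic knockout 1 the single-stage fit called 1078 and 1430 genes, without splenic knockout 2 it called 784 and 764, and without splenic wild type 1 it called 172 lower.

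Among the genes named by their level, the deepest falls were those of Lad1 and Wnt3. Falls and rises named by size and level had to show no overlap between genotypes in either stage. Their non-overlap is therefore no added support. Lad1, which encodes ladinin, an anchoring filament protein of basement membranes (chr1:135818598-135833342 on the plus strand, GRCm38), stood at 570 and 593 CPM in the wild-type and 26.8 and 31.5 CPM in the knockout de novo libraries. In spleen it stood at 130 and 117 against 4.27 and 1.55 CPM. Every knockout library lay far below every wild-type library of its stage, and the joint log2 fold change was −4.73 (SE 0.26, adjusted p = 7.06e-06), with −4.30 in de novo and −5.38 in splenic Tregs. Wnt3, which encodes a secreted ligand of the Wnt pathway (chr11:103774150-103817957, plus strand), had 43.6 and 37.9 against 1.35 and 2.11 CPM in de novo Tregs. In spleen it had 17.1 and 19.1 against 0.655 and 0.96 CPM. Its joint log2 fold change was −4.50 (SE 0.17, adjusted p = 2.62e-07), and the 2 stages gave nearly equal values of −4.53 and −4.47. Both genes were called in each of the 8 fits that left out 1 library.

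The promoters of Lad1 and Wnt3, of Bcl2l1 and Sdc4, which also fell, and of Ifitm3, which rose, are shown so that their kappaB content can be read. Each is the RefSeq window of 300 bases, from 250 before to 50 after the annotated start, read 5′ to 3′ on the gene's own strand (GRCm38.p6). Capitals mark matches, on either strand, to the NF-kB consensus kappaB motif; the windows of Lad1 (chr1:135818348-135818647, plus strand) and Wnt3 (chr11:103773925-103774224, plus strand) hold none. Bcl2l1 (chr2:152830668-152830967, minus strand) has 3 windows in RefSeq, and the one with a match is printed. Sdc4 (chr2:164443139-164443438, minus strand) and Ifitm3 (chr7:141010695-141010994, minus strand) have 1 window each.
Lad1: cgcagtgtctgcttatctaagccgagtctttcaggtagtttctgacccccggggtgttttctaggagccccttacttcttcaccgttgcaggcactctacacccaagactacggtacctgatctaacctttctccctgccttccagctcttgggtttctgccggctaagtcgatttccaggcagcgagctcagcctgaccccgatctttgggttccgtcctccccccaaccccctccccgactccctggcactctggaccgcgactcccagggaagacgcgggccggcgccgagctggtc
Wnt3: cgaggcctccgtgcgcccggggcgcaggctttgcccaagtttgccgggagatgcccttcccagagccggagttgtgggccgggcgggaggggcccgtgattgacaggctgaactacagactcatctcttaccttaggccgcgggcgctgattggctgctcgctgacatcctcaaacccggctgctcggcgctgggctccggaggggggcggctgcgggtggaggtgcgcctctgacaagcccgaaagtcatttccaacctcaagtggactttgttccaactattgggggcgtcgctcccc
Bcl2l1: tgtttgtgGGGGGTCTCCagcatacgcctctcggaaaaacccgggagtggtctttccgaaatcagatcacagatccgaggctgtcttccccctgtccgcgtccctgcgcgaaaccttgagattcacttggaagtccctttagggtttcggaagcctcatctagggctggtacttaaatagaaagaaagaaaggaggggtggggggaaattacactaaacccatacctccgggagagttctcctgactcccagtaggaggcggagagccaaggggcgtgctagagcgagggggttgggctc
Sdc4: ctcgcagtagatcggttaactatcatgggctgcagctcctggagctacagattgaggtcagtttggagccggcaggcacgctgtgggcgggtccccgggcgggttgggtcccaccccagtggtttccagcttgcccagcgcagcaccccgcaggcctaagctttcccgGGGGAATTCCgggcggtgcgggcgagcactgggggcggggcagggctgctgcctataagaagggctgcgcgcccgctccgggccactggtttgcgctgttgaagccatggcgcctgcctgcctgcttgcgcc
Ifitm3: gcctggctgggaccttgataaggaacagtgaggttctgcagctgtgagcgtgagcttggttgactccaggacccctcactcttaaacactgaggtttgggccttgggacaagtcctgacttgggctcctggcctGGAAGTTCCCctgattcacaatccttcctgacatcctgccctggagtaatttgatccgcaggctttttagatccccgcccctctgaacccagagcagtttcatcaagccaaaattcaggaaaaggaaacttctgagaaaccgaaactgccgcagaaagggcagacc

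The match in Sdc4, GGGGAATTCC, begins 82 bases before the start; that in Bcl2l1, GGGGGTCTCC, begins 242 bases before it, and that in Ifitm3, GGAAGTTCCC as printed, 116 bases before it and reads as the motif on the opposite strand. Over the called genes with a window, 33 of 214 fallen genes (15.4%) and 27 of 253 risen genes (10.7%) held the consensus in at least 1 window, against 1194 of 9559 genes tested (12.5%). The looser pattern GGGNNNNNCC, which includes every consensus match, was found on either strand in 76.2%, 70.4% and 71.6% of them. These shares describe the letters of promoter windows and leave out enhancers; a match is not a measured binding site.

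Other genes fell evenly in the 2 stages. Colq, which encodes the collagen tail of acetylcholinesterase (chr14:31523082-31591343, minus strand), had 257 and 270 against 49.5 and 55.2 CPM in de novo Tregs and 63.7 and 57.0 against 10.3 and 11.7 CPM in spleen. It gave the smallest adjusted p of all genes (1.61e-07), the estimate being −2.38 (SE 0.08). Ncf1, which encodes the p47phox subunit of the NADPH oxidase (chr5:134220053-134229625, minus strand), had 99.1 and 104 against 28.3 and 26.2 CPM, and 22.4 and 24.8 against 8.23 and 5.67 CPM in spleen. Its log2 fold change was −1.82 (SE 0.11, adjusted p = 1.33e-05). Neither gene's libraries overlapped between genotypes in either stage, which the choice of these genes required.

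Other deep falls were larger in the thymus than in the spleen, a difference that passed its own test for each of the next 4 genes (adjusted p of the interaction between 0.000451 and 0.0261). These 4 genes, too, were chosen on the condition of no overlap between genotypes. Il1r2, which encodes the decoy receptor for interleukin-1, fell from 79.8 and 68.0 to 8.72 and 8.19 CPM in de novo Tregs and from 54.5 and 56.2 to 21.5 and 18.8 CPM in spleen (joint log2 fold change −2.23, SE 0.28, adjusted p = 0.00189). Sdc4, a heparan sulfate proteoglycan of the cell surface, stood at 34.0 and 35.1 against 5.29 and 4.56 CPM, and at 15.9 and 17.6 against 7.72 and 5.45 CPM. Tnfrsf8, which encodes the TNF receptor CD30, stood at 7.87 and 7.47 against 0.916 and 1.04 CPM, and at 27.3 and 27.8 against 11.1 and 9.17 CPM. Nkg7, which encodes a membrane protein of cytotoxic granules, stood at 166 and 163 against 23.1 and 21.1 CPM, and at 139 and 143 against 64.2 and 73.8 CPM. Each of these 4 genes was lower in all 4 knockout libraries and was called in all 8 fits with a library left out, with joint log2 fold changes of −2.23, −2.05, −2.01 and −1.92. Tg, the thyroglobulin gene, followed them at −1.89 (SE 0.24, adjusted p = 0.00197). Ttc39c, at −1.92 (SE 0.43, adjusted p = 0.0276), lost its call without de novo knockout 1 (adjusted p = 0.0936), de novo knockout 2 (0.0813) or de novo wild type 1 (0.0694). Ccl5, a chemokine of activated T cells, had −1.79 (SE 0.40, adjusted p = 0.0296) and was called in only 3 of the 8 fits, losing its call without de novo knockout 1 or 2, de novo wild type 1, splenic knockout 1 or splenic wild type 2 (adjusted p between 0.0518 and 0.101).

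**Figure D2:**
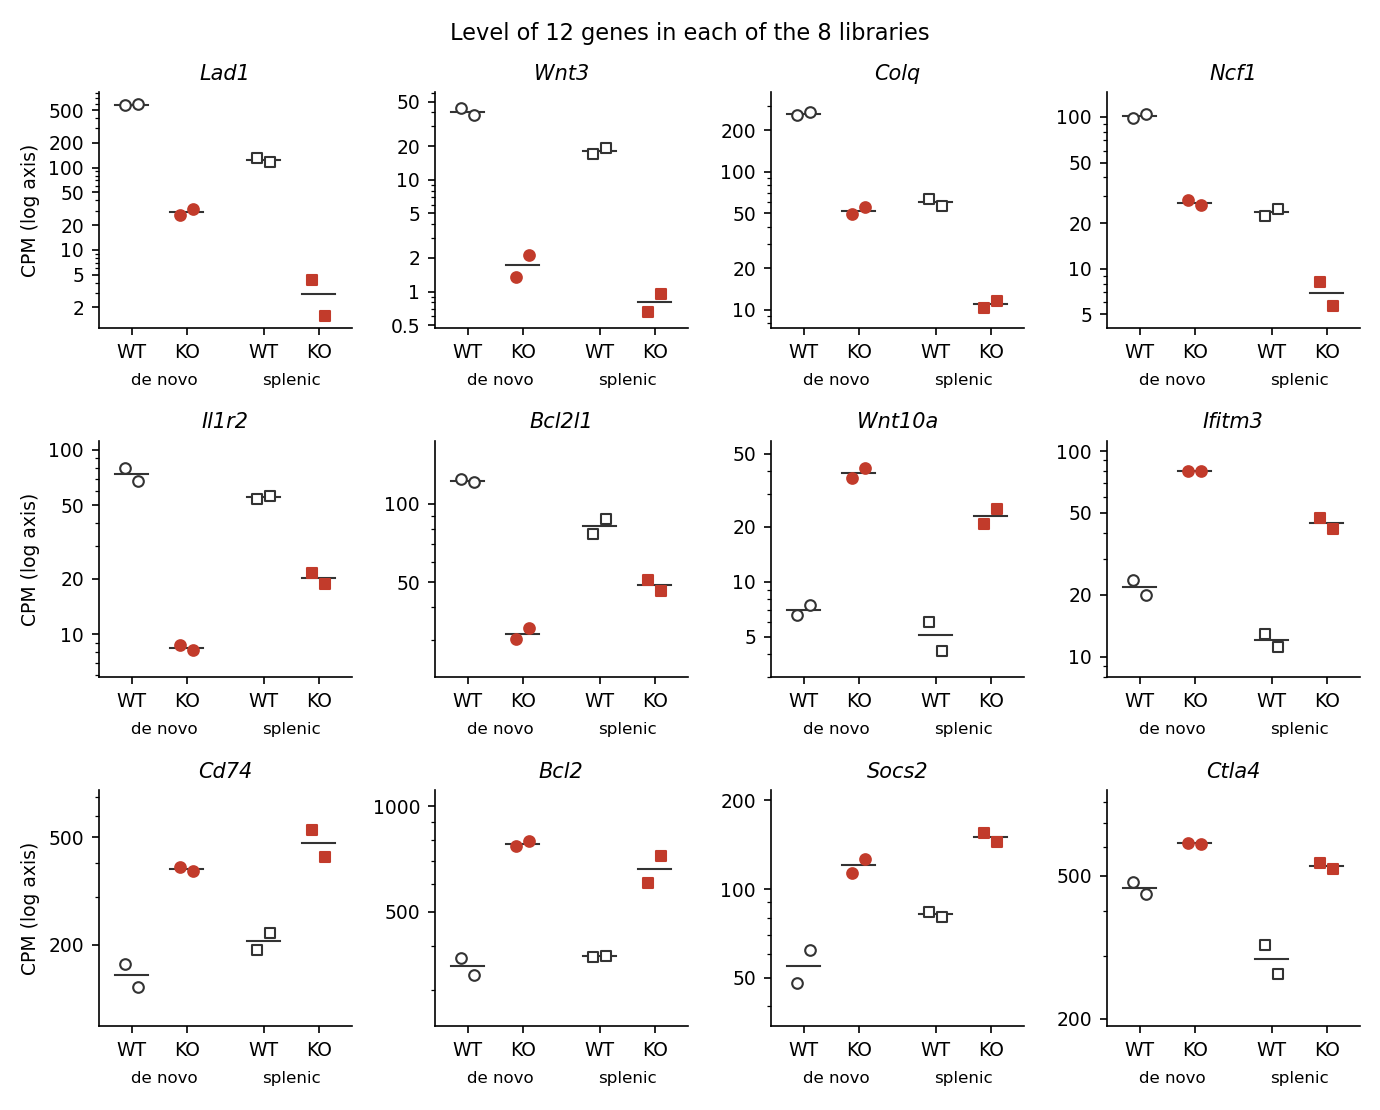
Level of 12 genes in each library, in CPM on a log axis that differs between panels; open symbols are wild type (WT) and red symbols knockout (KO), circles de novo and squares splenic libraries, and short lines the mean of each pair. In all 12 panels the knockout and wild-type pairs of a stage do not overlap, with 6 genes lower and 6 higher in the knockout. Genes taken from the largest falls and rises were chosen on that condition.

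Further falls among genes of low level were singled out after their values were seen. Hist1h4m, which encodes histone H4, was read 71 and 35 times in wild-type de novo libraries and never in the knockout ones, which makes it at least 16.6-fold lower against a floor of 3 counts per library, and 4.37 and 5.16 against 0.0285 and 0.0310 CPM in spleen. Histone H4 genes have near-identical copies, so its reads may be split between them. Hist1h4n, which starts 20.0 kb from it, was called and rose (0.88). Whether reads moved between such copies was not tested. Gcg, which encodes glucagon, had 165 and 166 against 0 and 0 counts in de novo Tregs, at least 51.5-fold lower, while the splenic libraries held at most 9 counts. Pkd1l1 stood at 1.38 and 0.460 against 0.0398 and 0.0371 CPM, and at 2.09 and 2.65 against 0.0285 and 0 CPM in spleen. Peli2, which encodes an E3 ubiquitin ligase of Toll-like and interleukin-1 receptor signalling, stood at 11.3 and 13.2 against 2.07 and 1.97 CPM, and at 4.76 and 4.08 against 1.11 and 0.712 CPM (log2 fold change −2.43, SE 0.19, adjusted p = 0.000101). The splenic knockout values of Hist1h4m and Pkd1l1 rest on 1 count or none per library.

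The neighbourhood of Lad1 held further falls. Of the 17 other genes tested within 1 Mb, 3 were called, all lower, against 2.31% of all genes tested called lower. These 3 were named after their values were seen. Tnnt2, which encodes cardiac troponin T and starts 17.8 kb downstream of the start of Lad1 on the same strand (chr1:135836354-135852260), stood at 5.61 and 5.95 against 0.358 and 0.185 CPM in de novo Tregs and at 1.80 and 1.92 against 0.199 and 0.0619 CPM in spleen (log2 fold change −4.11, SE 0.36, adjusted p = 0.000236). Csrp1 fell by 0.51 on the log2 scale (SE 0.07, adjusted p = 0.00434). Phlda3, at −0.65 (SE 0.16), passed with an adjusted p of 0.0498 and lost its call without any 1 of the 8 libraries. Tnni1, which encodes slow skeletal troponin I and lies between Phlda3 and Lad1, had −2.40 (SE 0.67) and did not pass (adjusted p = 0.0686). Around Rel, 5 of 75 genes tested within 10 Mb were called (6.67%), against 5.18% of all genes tested. Pus10, the nearest of them at 71.2 kb, rose from 23.4 and 27.5 to 42.1 and 44.5 CPM in de novo Tregs and from 22.9 and 19.4 to 34.7 and 33.9 CPM in spleen (log2 fold change 0.75, SE 0.09, adjusted p = 0.00152). Slc1a4, at −2.35, Ugp2, at −0.47, and Npm1, at −0.37, fell, and Lgalsl, at 0.81, rose. Ugp2 lost its call without de novo knockout 2 (adjusted p = 0.0507). Among tested genes, 17.6% of called genes had a called neighbour on at least 1 side, against 9.61% of the others. Of 61 neighbouring pairs that were both called, 45 moved the same way. These included model-named genes on the first 8 Mb of chromosome 14, where 16 of 27 tested rose and 0 fell. The part of this cluster in the shares was not tested.

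**Figure D3:**
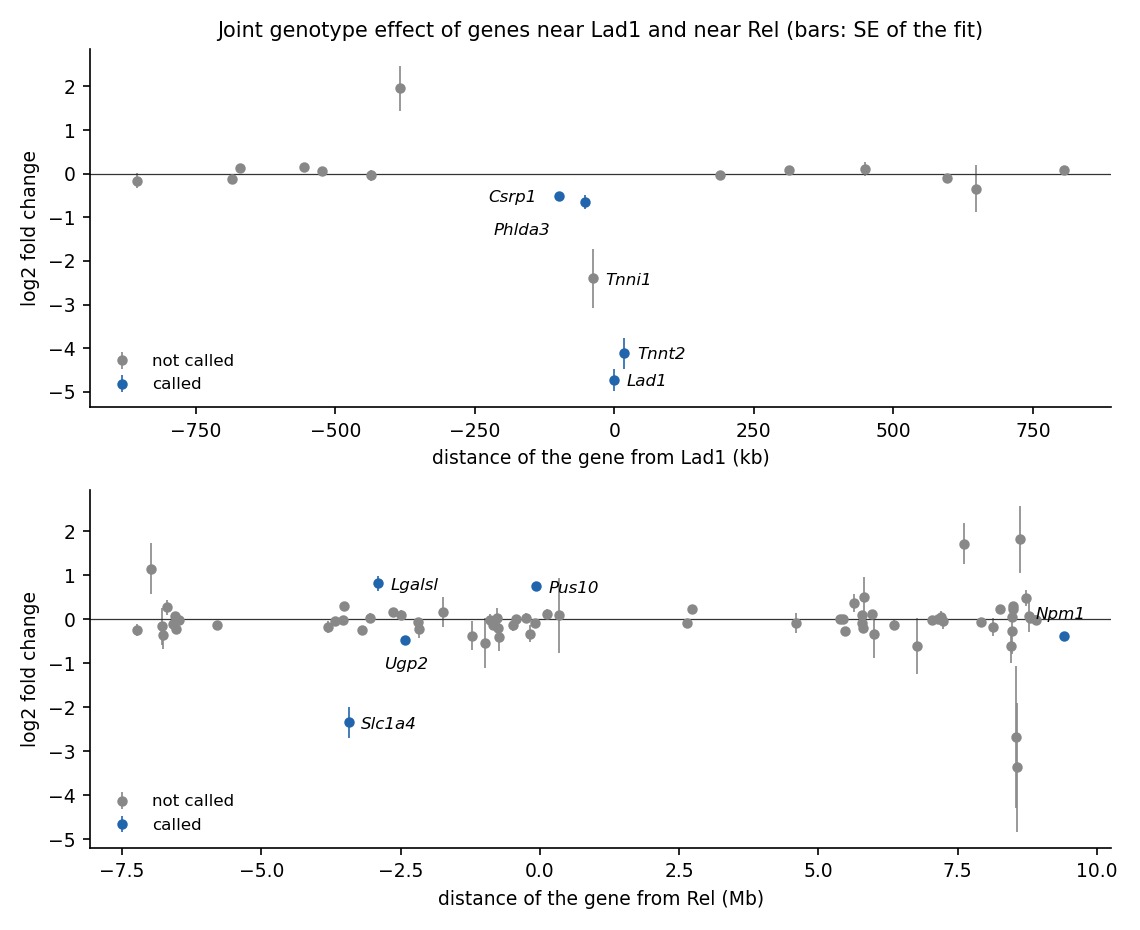
Joint log2 fold change (y axis, bars show the SE of the fit) of the genes tested within 1 Mb of Lad1 (top, distance in kb) and within 10 Mb of Rel (bottom, distance in Mb), plotted by the distance between gene starts. Blue points passed the test and grey points did not; the called genes near Lad1 lie within 98.5 kb of it and all fell, while those near Rel are scattered and went both ways.

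Of the called rises in named genes whose knockout mean reached 5 CPM in both stages, that of Wnt10a was the largest, while genes at lower levels had larger estimates. Wnt10a, another Wnt ligand gene (chr1:74791516-74804179, plus strand), rose from 6.56 and 7.44 to 36.7 and 41.9 CPM in de novo Tregs and from 6.01 and 4.20 to 20.7 and 25.0 CPM in spleen (log2 fold change 2.34, SE 0.14, adjusted p = 1.76e-05). Ifitm3, which encodes an interferon-induced membrane protein that hinders virus entry (chr7:141009586-141010770, minus strand), rose from 23.5 and 20.0 to 80.0 and 79.7 CPM and from 12.96 and 11.1 to 47.3 and 41.7 CPM, by 1.89 and 1.90 on the log2 scale in the 2 stages (joint 1.89, SE 0.09, adjusted p = 1.92e-06). Cd74, which encodes the invariant chain of MHC class II, rose from 169.9 and 140.0 to 389 and 375 CPM and from 191 and 222 to 533 and 422 CPM (1.27, SE 0.09, adjusted p = 6.24e-05). All knockout libraries lay above all wild-type libraries of their stage for these 3 genes, which their choice required. Cdhr3 (1.86), Fam19a3 (1.59), Pdzk1ip1 (1.46), Sh3bgrl2 (1.44), Amica1 (1.35), Car11 (1.28), Myo3b (1.28) and Tns1 (1.25) also rose and kept their call whichever library was left out. Fes, which encodes a tyrosine kinase, had 1.69 (SE 0.34, adjusted p = 0.0183) but lost its call without de novo knockout 2 (adjusted p = 0.0522), de novo wild type 1 (0.0591) or de novo wild type 2 (0.0677).

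Some genes that rose were close to 0 in wild type; they were named after their values were seen. Efcc1 had 32 and 41 counts in the knockout and none in the wild-type de novo libraries, at least 12.96-fold higher against the floor of 3 counts per library, and 1.54 and 1.11 against 0 and 0.0874 CPM in spleen. Fam159b stood at 4.78 and 5.78 against 1.42 and 0.956 CPM in wild-type de novo Tregs and at 4.04 and 3.90 against 0.359 and 0.379 CPM in spleen (log2 fold change 2.73, SE 0.30, adjusted p = 0.00106). Among better expressed genes, Il10ra, the ligand-binding chain of the interleukin-10 receptor, rose from 82.6 and 80.4 to 153 and 148 CPM and from 180.4 and 160.0 to 256 and 272 CPM (0.77, SE 0.07, adjusted p = 0.000309). Nod1, a cytoplasmic sensor of bacterial peptidoglycan, rose by 0.77 (SE 0.07, adjusted p = 0.000292) and Irf8, an interferon regulatory factor, by 0.67 (SE 0.08, adjusted p = 0.00149). Penk, the proenkephalin gene, which is expressed in Tregs, fell from 200 and 288 to 101 and 99.2 CPM and from 218 and 273 to 137 and 132 CPM (−1.06, SE 0.13, adjusted p = 0.00152).

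The survival genes of the Bcl2 family moved in opposite directions. Bcl2 (chr1:106538178-106714274, minus strand) rose from 370 and 331 to 771 and 794 CPM in de novo Tregs and from 373 and 375 to 605 and 719 CPM in spleen (log2 fold change 1.01, SE 0.08, adjusted p = 0.000188). Bcl2l1, which encodes Bcl-xL (chr2:152780668-152831728, minus strand), fell from 125 and 121 to 30.1 and 33.3 CPM and from 76.7 and 87.2 to 51.0 and 46.3 CPM (−1.33, SE 0.20, adjusted p = 0.00506). In neither gene did the genotypes overlap within a stage. Bcl2a1d, a copy of the A1 gene, fell from 29.3 and 27.2 to 3.50 and 4.04 CPM and from 19.2 and 20.0 to 6.12 and 7.15 CPM (−2.19, SE 0.24, adjusted p = 0.00106); its near-identical copies may share its reads, so its level is uncertain. Mcl1, the remaining main survival gene, was measured at 697 and 625 against 597 and 663 CPM and at 599 and 575 against 626 and 539 CPM, with overlapping libraries in both stages (−0.03, adjusted p = 0.873). Of the 6 tested anti-apoptotic members 1 rose and 2 fell, and their median log2 fold change was −0.27. Over all genes tested, 2.87% rose and 2.31% fell. Among 13 pro-apoptotic genes 1 was called: Fas, the death receptor, fell from 166 and 174 to 101 and 116 CPM and from 87.2 and 79.1 to 59.1 and 58.9 CPM (−0.56, SE 0.07, adjusted p = 0.00207). Bcl2l11, which encodes the BH3-only protein Bim, had 0.25 (SE 0.08, adjusted p = 0.111). In bulk RNA, fewer cells of a type and less RNA per cell cannot be told apart, here and for every gene below.

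Within the NF-kB system itself, 3 of 26 genes tested rose and 0 fell, against 2.87% and 2.31% of all genes, and the median log2 fold change was 0.08. The partner subunits of c-Rel were measured close to wild type: Nfkb1 at 0.09 (SE 0.07, adjusted p = 0.544), Rela at −0.01 (SE 0.05, adjusted p = 0.942) and Nfkb2 at 0.06 (SE 0.07, adjusted p = 0.724). Relb, the subunit of the non-canonical pathway, rose from 163 and 165 to 202 and 208 CPM in de novo Tregs and from 157 and 165 to 207 and 240 CPM in spleen (0.41, SE 0.07, adjusted p = 0.00601). Nfkbiz, which encodes the nuclear IkB protein IkB-zeta, rose from 158 and 148 to 199 and 201 CPM and from 140 and 118 to 207 and 178 CPM (0.49, SE 0.08, adjusted p = 0.00601). Ikbkb, which encodes the kinase IKK-beta, rose by 0.30 (SE 0.06, adjusted p = 0.0161); its call was lost without de novo knockout 2, de novo wild type 2, splenic wild type 1 or splenic wild type 2 (adjusted p between 0.0520 and 0.0668).

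The IL-2 and STAT5 response list, which covers the receptor, its kinases and genes known to answer STAT5, had 6 of 20 members risen and 3 fallen, against 2.87% and 2.31% of all genes tested, with a median of 0.10. Socs2 rose from 47.9 and 62.0 to 114 and 127 CPM and from 83.7 and 80.5 to 155 and 144 CPM (1.01, SE 0.09, adjusted p = 0.000309). Socs1 rose from 149.7 and 172 to 233 and 245 CPM and from 148 and 152 to 186 and 263 CPM (0.59, SE 0.10, adjusted p = 0.0073), and Socs3 from 53.5 and 65.3 to 94.0 and 88.6 CPM and from 128 and 119.8 to 169 and 152 CPM (0.51, SE 0.08, adjusted p = 0.00719). These 3 are inhibitors of JAK and STAT signalling, and none of their knockout libraries overlapped with wild type. Cish, Xbp1 and Il2rb were the other rises, at 0.34, 0.43 and 0.26; each lost its call without at least 3 of the 8 libraries, always including de novo knockout 2, de novo wild type 1 and splenic wild type 2. Gadd45b, a stress and NF-kB response gene, fell by 1.02 on the log2 scale (SE 0.18, adjusted p = 0.0112) from 35.0 and 27.2 to 11.2 and 10.5 CPM and from 27.6 and 34.9 to 21.6 and 20.3 CPM. Stat5a and Bcl6 fell by 0.32 and 0.49, and lost their call in 5 and 4 of the 8 fits. Il2ra was measured higher in all de novo but not all splenic knockout libraries, 973 and 992 against 1242 and 1394 CPM and 707 and 671 against 991 and 640 CPM, and did not pass (0.35, SE 0.11, adjusted p = 0.116).

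Genes that define Tregs went both ways, and Foxp3 itself did not pass. Foxp3 had 793 and 786 CPM in the wild-type and 709 and 812 CPM in the knockout de novo libraries, and 739 and 703 against 894 and 658 CPM in spleen, with overlap in both stages (0.04, SE 0.09, adjusted p = 0.845). Ikzf2, which encodes the Treg factor Helios, had 0.04 (SE 0.09, adjusted p = 0.836). Of the 21 Treg identity genes 8 rose and 3 fell, against 2.87% and 2.31% of all genes tested, with a median of 0.04. Ctla4, an inhibitory receptor central to Treg function, rose from 480.1 and 445 to 617 and 612 CPM and from 321 and 267 to 543 and 523 CPM (0.65, SE 0.10, adjusted p = 0.00442). Capg (0.49) and Rgs1 (0.39) rose with it in every leave-one-out fit, as did Socs2. Izumo1r, which encodes folate receptor 4, rose by 0.61 (SE 0.11, adjusted p = 0.013) but not without de novo wild type 1 (adjusted p = 0.0537). Gpr83, Plagl1 and Entpd1, at 0.60, 0.58 and 0.52, were called in 4, 4 and 1 of the 8 fits. Ikzf4, which encodes Eos, a partner of Foxp3 in repression, fell from 352 and 369 to 222 and 268 CPM and from 316 and 305 to 214 and 200.4 CPM (−0.56, SE 0.07, adjusted p = 0.00176), and Cd81, a tetraspanin, by 0.52 on the log2 scale (SE 0.05, adjusted p = 0.000612). Cd83, an activation marker and known NF-kB target, fell by 1.20 (SE 0.23, adjusted p = 0.0157) and lost its call without de novo knockout 1 (adjusted p = 0.0559) or 2 (0.0671).

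Effector Treg genes lay on the low side. Of 28 members of the list, 7 fell and 0 rose, 26 had a negative joint estimate, and the median was −0.52, against 2.31% of all genes tested called lower. The median joint estimate of all genes tested was 0.00016. The medians by stage were −0.98 in de novo and −0.20 in splenic Tregs. The test of a stage difference was passed by 8 of the 28, against 1.07% of all genes tested. Il1r2 is described above. Lgals3, which encodes galectin-3, stood at 5.17 and 5.42 against 3.18 and 1.74 CPM and at 9.78 and 13.2 against 5.38 and 4.77 CPM (−1.13, SE 0.19, adjusted p = 0.00779). Ccr8, a chemokine receptor of effector Tregs, stood at 244 and 207 against 142 and 108 CPM and at 128 and 134 against 103 and 93.0 CPM (−0.62, SE 0.11, adjusted p = 0.0103). Batf, an AP-1 factor of effector differentiation, stood at 97.0 and 109 against 62.1 and 61.2 CPM and at 169 and 178 against 119.5 and 150.3 CPM (−0.53, SE 0.10, adjusted p = 0.0116). These 4 were called in every leave-one-out fit. Itgb1, Irf4 and Ccr6, at −0.51, −0.66 and −0.79, were called in 2, 3 and 1 of them, and each lost its call without any 1 of the 4 de novo libraries. The list's count was 4 without any 1 of the de novo libraries or without splenic wild type 2. Members that did not pass jointly included Icos (0.07, adjusted p = 0.556), Tigit (−1.25, adjusted p = 0.0706) and Klrg1 (−1.47, adjusted p = 0.0953).

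**Figure D4:**
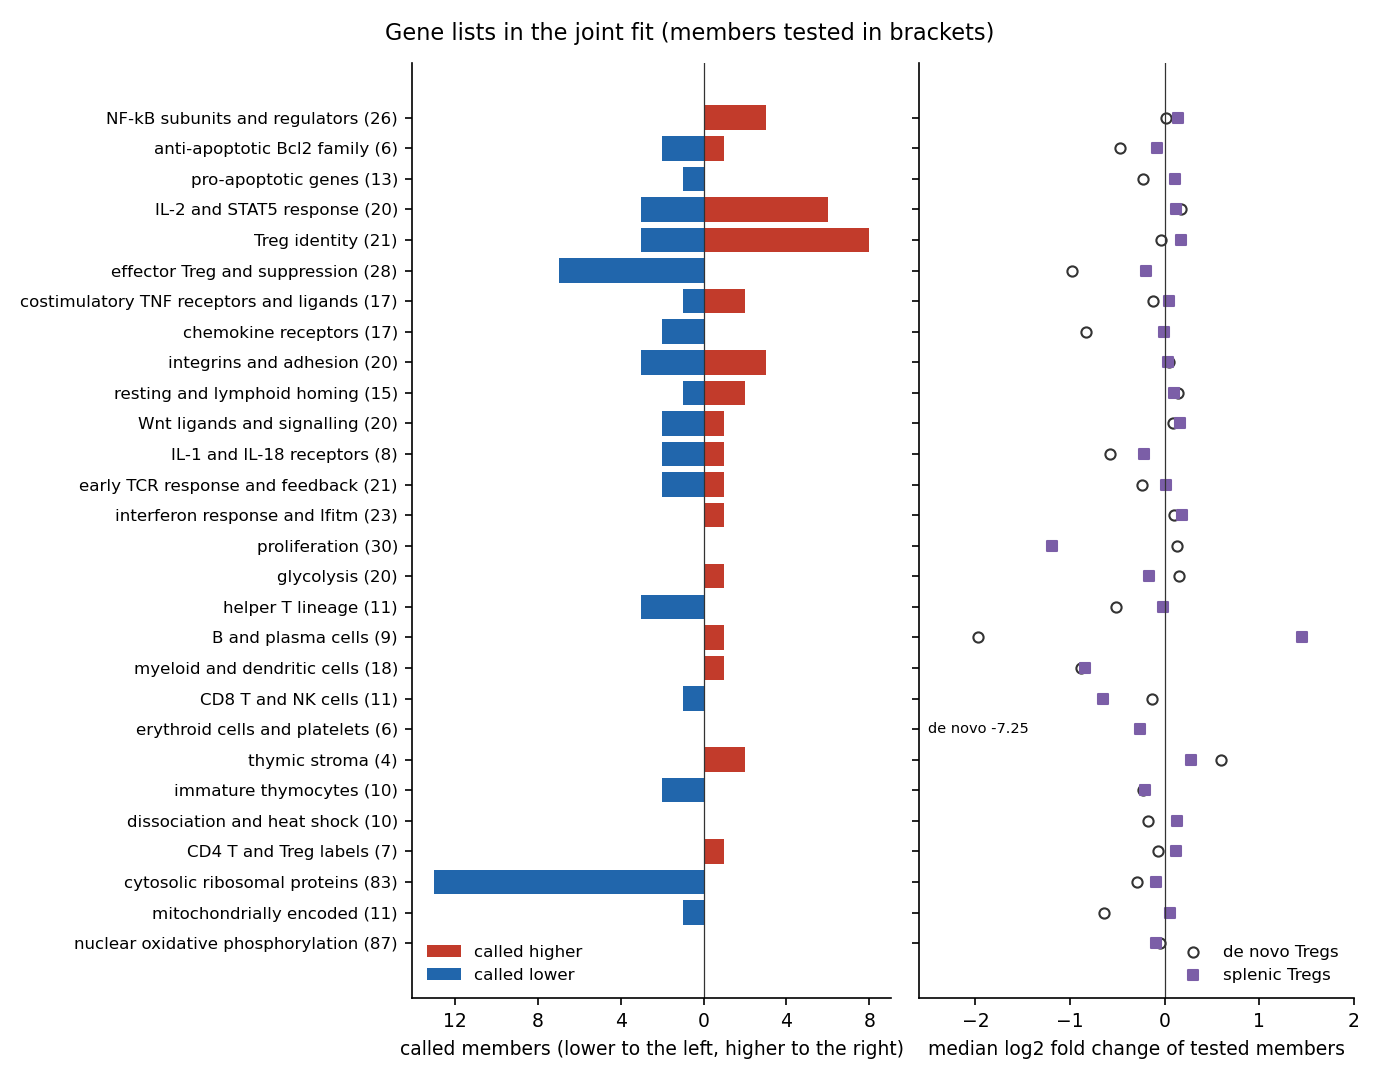
Gene lists in the joint comparison, with the number of members tested in brackets. Left, number of members called lower (blue, to the left) and higher (red, to the right); right, median log2 fold change of the tested members in de novo (open circles) and splenic Tregs (squares), with the de novo median of the erythroid list, −7.25, written in because it lies outside the axis. The effector Treg list has 7 members lower and 0 higher, the Treg identity list 8 higher and 3 lower, and proliferation genes have medians of 0.13 in de novo and −1.19 in splenic Tregs with 0 called jointly.

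In the list of TNF receptors and ligands, 2 of 17 genes rose and 1, Tnfrsf8, fell. For this and the next lists, the shares over all genes tested were 2.87% risen and 2.31% fallen. Cd40lg, the ligand of CD40, rose from 23.97 and 19.6 to 44.3 and 33.3 CPM and from 34.2 and 37.1 to 59.5 and 52.4 CPM (0.75, SE 0.11, adjusted p = 0.00411), and Lta, which encodes lymphotoxin alpha, rose by 0.46 (SE 0.08, adjusted p = 0.0119). The costimulatory receptors that Tregs express at high levels did not pass: Tnfrsf18 (GITR) had −0.09 (adjusted p = 0.502), Tnfrsf4 (OX40) −0.19 (0.0755), Tnfrsf9 (4-1BB) −0.18 (0.174) and Tnfrsf1b −0.21 (0.153). Of 20 integrin and adhesion genes 3 rose and 3 fell. Itga4, the alpha chain of VLA-4, fell from 60.9 and 68.9 to 38.5 and 38.9 CPM and from 127 and 138 to 101 and 102 CPM (−0.55, SE 0.08, adjusted p = 0.00507), and Icam1 by 0.51 on the log2 scale (SE 0.09, adjusted p = 0.00881). Itgb3 rose by 0.41 (SE 0.07, adjusted p = 0.0103), and Madcam1, a ligand of integrin alpha4beta7, from 0.728 and 2.41 to 10.5 and 10.9 CPM and from 0.479 and 0.524 to 1.71 and 1.42 CPM (2.31, SE 0.37, adjusted p = 0.00601). Of 17 chemokine receptor genes 2 fell, Ccr8 and Ccr6, and 0 rose.

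Other lists held few calls, to be read beside 2.87% risen and 2.31% fallen of all genes tested. In the Wnt list, Tcf7, a transcription factor of resting T cells, fell beside Wnt3 by 0.34 (SE 0.06, adjusted p = 0.0111; 0.0516 without de novo knockout 2), so that 1 of 20 members rose and 2 fell. Among 15 resting and homing genes Foxp1 rose by 0.36 (SE 0.06, adjusted p = 0.00701) and Il6ra by 0.45 (SE 0.08, adjusted p = 0.0119; 0.0617 without de novo wild type 1), and Tcf7 fell. Spry1, a feedback inhibitor of receptor signalling, rose by 0.51 (SE 0.08, adjusted p = 0.00518), the 1 rise among 21 early TCR response genes, whose median was −0.18. In that list 2 fell: Irf4, given above, and Cd5, a negative regulator of T cell receptor signalling, at −0.24 (SE 0.05, adjusted p = 0.019), which was called in 2 of the 8 fits and lost its call without any 1 de novo or splenic wild-type library (adjusted p from 0.0552 to 0.0706). Of 23 interferon response genes only Ifitm3 was called. In the IL-1 and IL-18 receptor list, Il18rap and Il18r1 had −0.97 and 0.54 (adjusted p = 0.0254 and 0.0258) and were called in 4 and 3 of the 8 fits. Of 11 helper T lineage genes 3 fell (Bcl6, Rora and Ccl5), none of them in every fit. Aldoc was the 1 called gene of 20 in glycolysis (0.76, adjusted p = 0.0413; called in 2 of 8 fits). Genes of cytosolic ribosomal proteins numbered 83, of which 13 fell and 0 rose, against 2.31% and 2.87% of all genes tested, with a median of −0.19; only Rps26 (−0.48, SE 0.07, adjusted p = 0.00442) was called in every fit. The list's count was 35 without splenic knockout 2 and between 1 and 4 without any 1 of the de novo or splenic wild-type libraries. Their summed level was 9680.4 and 9833 against 8118 and 7758 CPM in de novo Tregs, and 14164 and 13791 against 11971 and 13482 CPM in spleen. Of 87 nuclear genes of oxidative phosphorylation 0 were called by edgeR (11 at an unadjusted p under 0.05), 4 by DESeq2 and 0 by limma-voom. All 11 tested genes encoded in mitochondria had a joint estimate below 0 (median −0.33, −0.64 in de novo and 0.06 in splenic Tregs), and 1, mt-Cytb, was called lower (−0.36, SE 0.08, adjusted p = 0.0265; called in 3 of 8 fits and lost without any 1 de novo library or splenic wild type 2, adjusted p from 0.0605 to 0.0956). Their summed level was 4292 and 4598 against 2938 and 2980.4 CPM in de novo Tregs, where the genotypes did not overlap, and 4044 and 5117 against 4487 and 5071 CPM in spleen, where they did. Of 10 dissociation and heat shock genes edgeR called 0 (2 had an unadjusted p under 0.05), DESeq2 called 1 and limma-voom 0, with summed levels of 1247 and 976 against 865 and 1188 CPM and of 856 and 910.5 against 974 and 766 CPM. The part of these signs of cell quality in the genotype effects was not tested.

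Proliferation genes differed by stage. Of 30, 0 were called jointly by edgeR, DESeq2 or limma-voom, and 7 had an unadjusted p under 0.05 in edgeR. The joint median was −0.51. The test of a stage difference was passed by 13, against 1.07% of all genes tested. Their summed level was 2547 and 2057 against 2458 and 2404 CPM in de novo Tregs but 2440.1 and 2668 against 1676 and 1093 CPM in spleen, where splenic knockout 2 was the lowest of all libraries. With the mean of the 2 stage contrasts in place of a common coefficient, 10 of the 30 were called lower.

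Markers of other cell types were read beside these genes. The shares over all genes tested were 2.87% risen and 2.31% fallen. In the B and plasma cell list Cd79b alone was called; it rose from 14.9 and 21.7 to 28.5 and 27.5 CPM and from 33.5 and 36.5 to 56.5 and 54.2 CPM (0.65, SE 0.11, adjusted p = 0.00679). The summed B cell markers lay between 32.3 and 63.5 CPM in 7 libraries and at 112 CPM in splenic knockout 1, and the calls of Cd79b and Cd74 were kept without that library. In the myeloid and dendritic list Cd74 alone was called of 18, and 14 of the 18 had a joint estimate below 0. H2-Aa, H2-Ab1 and H2-Eb1, the class II genes of antigen-presenting cells, were at most 41.6 CPM in any library and did not follow Cd74 (−0.60, −0.35 and 0.005, adjusted p = 0.659, 0.819 and 0.996), while H2-Oa rose by 0.82 (SE 0.11, adjusted p = 0.00246). Nkg7 was the only called member of 11 CD8 T and NK cell genes, whose summed level was 1051 and 1162 against 644 and 647 CPM in de novo Tregs and 401 and 401 against 296 and 309 CPM in spleen. In the immature thymocyte list 2 of 10 tested genes fell and 8 were not called. The falls were Tox2 (−1.46, SE 0.17, adjusted p = 0.00143) and Sox4 (−0.46, adjusted p = 0.0119), which lost its call without de novo wild type 1. Wild-type Tox2 was higher in spleen (34.7 and 48.9 CPM) than in thymic de novo Tregs (8.30 and 6.73 CPM). Of the 11 genes of the thymic stroma list, 4 were tested and 4 had no count in any library. Among the tested genes 2 rose, Epcam (0.58) and Pecam1 (0.34), each called in 3 of 8 fits. The list's summed level was 231.5 CPM in both wild-type and 309 and 308 CPM in the knockout de novo libraries. In spleen it was 248 and 226 against 302 and 272 CPM. Most of it came from Pecam1, at 212 and 215 against 279 and 278 CPM in de novo Tregs and 218 and 186 against 258 and 225 CPM in spleen. Erythroid markers summed to 107 CPM in de novo wild type 1 and to at most 23.7 CPM elsewhere. The part of other cell types in the changes of Treg genes was not tested.

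For 134 genes (1.07% of those tested) the effect of genotype itself differed between the stages; 71 were higher and 63 lower in the splenic minus the de novo log2 fold change, and 86 had opposite signs in the 2 stages. Only 32 of the 134 were also called jointly, and 31 of these had the larger change in de novo Tregs. Among all jointly called genes the change was larger in de novo Tregs for 196 of 360 risen and 200 of 289 fallen genes, with medians of 0.56 and 0.49 for the rises and −0.69 and −0.52 for the falls. Bcl2l1 is an example of a shared but unequal fall, with −1.94 in de novo and −0.74 in splenic Tregs (difference 1.20, adjusted p = 0.0058). Itgae, the alpha chain of the integrin CD103, went opposite ways, from 91.6 and 99.2 to 25.6 and 16.3 CPM in de novo Tregs and from 95.8 and 75.4 to 169 and 126 CPM in spleen; its joint value of −0.63 did not pass (adjusted p = 0.551). There were 6 genes called in opposite directions by the single-stage fits, named for that after their values were seen: Axl, Il1rl1 and Ahnak were lower in de novo and higher in splenic knockout cells, and Asf1b, Tpi1 and Kif22 the reverse. The count of stage differences ranged from 21 to 462 when 1 library was left out; it was lowest without splenic wild type 2 and highest without splenic knockout 1.

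**Figure D5:**
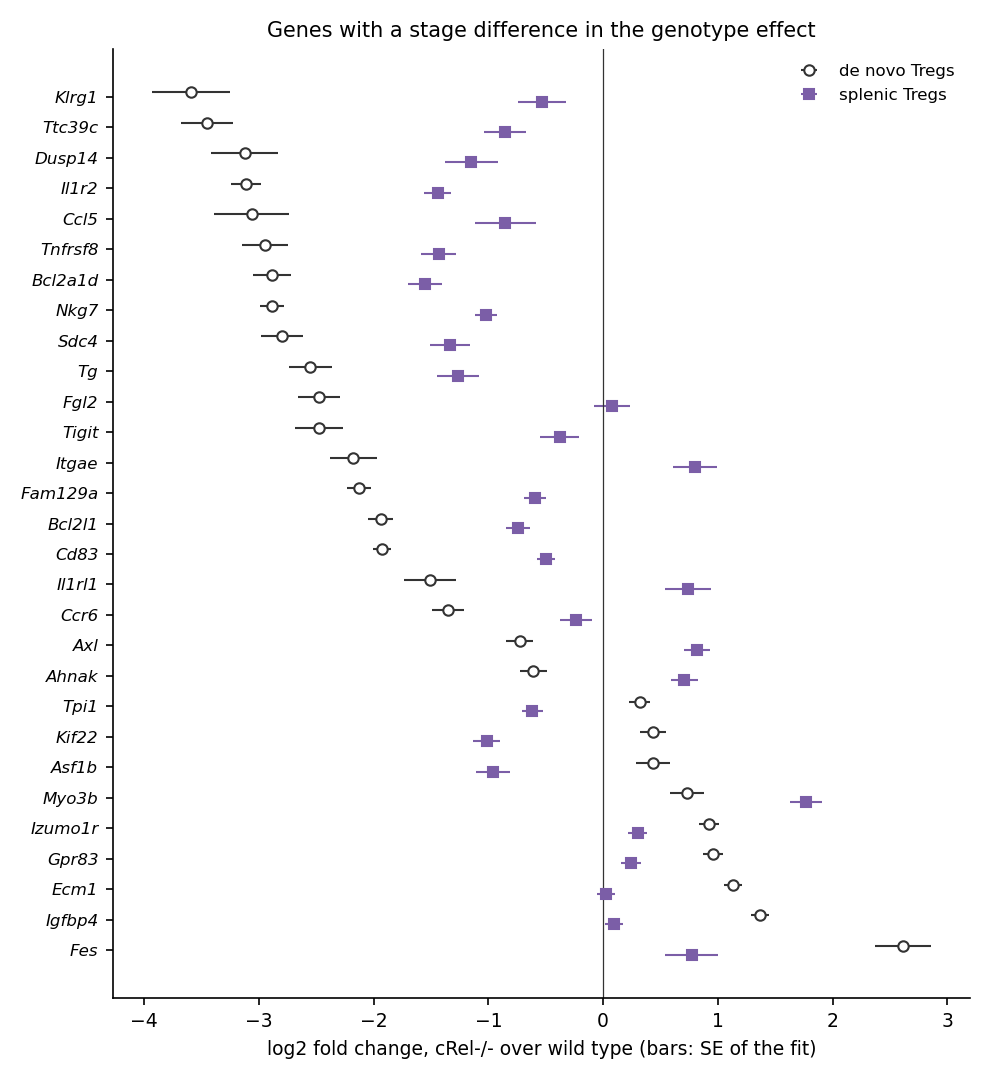
Log2 fold change of cRel-/- over wild type in de novo (open circles) and splenic Tregs (squares) for the 29 named genes whose genotype effect differed between the stages; bars show the SE of the fit of 4 group means. From Klrg1 to Ahnak the de novo value lies below the splenic one, from Tpi1 downwards it lies above it except in Myo3b, and Fgl2, Itgae, Il1rl1, Axl, Ahnak, Tpi1, Kif22 and Asf1b lie on opposite sides of 0.

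Part of the joint calls came from neither stage alone. Of the 649 genes, 209 were called in neither single-stage fit, 132 risen and 77 fallen; their median size was 0.41 on the log2 scale, against 0.65 for the rest, and 13 of them were called in every leave-one-out fit. Gnaq, which encodes a G protein alpha subunit, had the smallest adjusted p of those with at least 5 CPM in a group: 4.26 and 4.64 against 7.17 and 7.42 CPM in de novo Tregs and 10.2 and 11.5 against 19.3 and 16.7 CPM in spleen (0.73, SE 0.11, adjusted p = 0.00518). Inpp4a, a phosphoinositide phosphatase gene, rose from 22.9 and 21.9 to 28.8 and 30.9 CPM and from 26.9 and 27.4 to 36.2 and 39.5 CPM (0.46, SE 0.08, adjusted p = 0.00694). Lca5 (0.72), Cdh23 (0.48) and Rgs9 (0.71) also rose, and Actg2 (−0.56) and Scpep1 (−0.70) fell, all in every leave-one-out fit, while Afap1l1 (0.88, adjusted p = 0.0107) lost its call without de novo knockout 2 (0.0541).

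Pre-Tregs, the thymic CD4 cells labelled as precursors of Tregs, served as an outside comparison, with 2 wild-type and 3 knockout libraries and a wider spread (biological coefficient of variation 0.249). In them 0 of 11854 genes tested were called by edgeR, and 875 had an unadjusted p under 0.05. Of the joint rises tested there, 178 of 329 (54.1%) had a positive pre-Treg log2 fold change, and of the joint falls 149 of 273 (54.6%) a negative one, against 52.9% positive and 47.1% negative of all genes tested in both. The same sign with an unadjusted p under 0.05 in edgeR was found for 54 of the 273 falls and 29 of the 329 rises. Over all 11854 genes tested, 875 had such a p in either direction. Lad1 and Wnt3 had −2.41 and −3.74 in pre-Tregs (unadjusted p = 0.00013 and 5.4e-05). The test of whether the Foxp3+ stages differ from pre-Tregs called 28 of 13058 genes (0.214%), 18 of them also called jointly; leaving out 1 of the 13 libraries gave 2 to 702, the most without pre-Treg knockout 1. Nkg7 (difference −2.07, SE 0.24, adjusted p = 0.00723) and Rcn1 (1.398, SE 0.15, adjusted p = 0.00723) were called whichever library was left out. Bcl2, with 1.01 in the Foxp3+ stages and −0.18 in pre-Tregs, passed (difference 1.18, SE 0.19, adjusted p = 0.0328), as did Wnt10a (1.92, SE 0.34, adjusted p = 0.0402), but each was called in only 3 of these 13 fits. Lad1 (adjusted p = 0.0581), Wnt3 (0.475) and Bcl2l1 (0.116) did not pass it.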

How the data were processed

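RNA-seq libraries of sorted thymic pre-Tregs, thymic de novo Tregs and splenic Tregs were deposited as 3 tables of raw counts per gene, 1 per stage; per the submitters' processing notes reads were handled with STAR 2.5.2, featureCounts and Subread 1.5.2, Picard 2.9.0 and limma, with FastQC and MultiQC also listed, and the build was GRCm38. Strand use in counting is not given in the sources used here. From the deposited counts the de novo and splenic tables were joined on gene ID, and 0 sample columns were left unused. Genotype was tested with edgeR 4.0.16 (R 4.3.3): TMM normalization, filterByExpr (minimum count 10, minimum total 15), the quasi-likelihood F test of knockout over wild type with stage as covariate, and Benjamini-Hochberg adjustment over all genes tested. Stage effects and their difference came from a fit of 4 group means, and single-stage fits used each table alone. DESeq2 1.42.0 and limma-voom (limma 3.58.1) were alternatives, and each library was left out in turn. Tested on simulated data of 12532 genes, 200 of them changed, the joint fit recovered 91% of 1.5-fold changes and 100% of 2-fold and of 4-fold changes. Of its calls there, 4.43% were false. The changed genes were well counted and changed alike in both stages, and all genes shared 1 fixed spread. The recovery therefore does not cover genes of low count, stage differences or the wider spread of the splenic knockout pair.

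Named genes were up to 12 called rises and 12 falls by size, given no overlap and, in each stage's higher genotype, a mean reaching 5 CPM, without model-named genes; from each list, up to 4 called members by adjusted p; Rel, Foxp3, Ikzf2, Il2ra, Ctla4, Bcl2, Bcl2l1, Mcl1, Bcl2l11, Socs2, Nfkb1, Rela and Nfkb2; up to 8 stage differences and 8 genes called only jointly; and up to 4 called genes near Rel. Further list members and genes were named after their values were seen. The members and lists were chosen with earlier results of these data known. Gene positions are those of the deposited pre-Treg table, and promoter windows are from RefSeq (GRCm38.p6). The SE of a fold change includes the spread between libraries, while the floors cover counting error only.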

Additional observations from a re-analysis of the deposited data

Results flagged for a closer look

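For 29 of the named genes the effect of genotype differed between the stages by edgeR's test of the difference itself (adjusted p of the interaction under 0.05). Values are the splenic minus the de novo log2 fold change, so that a positive value means a signed log2 fold change that is higher in spleen. It does not by itself mean a larger effect there.

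For 21 genes, among them genes of effector Tregs and of cell surface receptors, the signed log2 fold change was higher in spleen than in de novo Tregs. This covers a smaller fall in spleen, as in Il1r2 (−3.11 in de novo and −1.44 in splenic Tregs). It also covers opposite changes, as in Itgae (−2.18 and 0.80), and a larger rise, as in Myo3b (0.73 and 1.77). Klrg1 differed by 3.06, Itgae by 2.97, Fgl2 by 2.55, Il1rl1 by 2.25, Tigit by 2.10, Il1r2 by 1.67, Axl by 1.55, Tnfrsf8 by 1.52, Sdc4 by 1.46, Cd83 by 1.43 and Ccr6 by 1.12. Fgl2, which encodes a suppressive protein of Tregs, stood at 17.6 and 21.2 against 3.10 and 3.78 CPM in de novo Tregs and at 21.7 and 27.5 against 25.4 and 25.9 CPM in spleen. Among other genes, Ttc39c differed by 2.60, Ccl5 by 2.21, Dusp14 by 1.97, Nkg7 by 1.86, Fam129a by 1.53, Bcl2a1d by 1.34, Ahnak by 1.32, Tg by 1.29, Bcl2l1 by 1.20 and Myo3b by 1.04.

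The signed log2 fold change was lower in spleen for Fes (−1.84), Kif22 (−1.45), Asf1b (−1.39), Igfbp4 (−1.27), Ecm1 (−1.11), Tpi1 (−0.94), Gpr83 (−0.71) and Izumo1r (−0.62). Ecm1, an extracellular matrix gene of Tregs, stood at 1141 and 1187 against 2584 and 2460.3 CPM in de novo Tregs, while its splenic libraries lay between 663 and 761 CPM. Igfbp4 stood at 108 and 110 against 273 and 282 CPM in de novo Tregs and between 251 and 273 CPM in all splenic libraries.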

How the results depend on the processing

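Every named gene called jointly kept its sign under all alternatives, while 19 named genes that were not called jointly had the opposite sign in 59 values, among them the 6 genes called opposite ways in the single stages. Of the 2797 values of the 165 named genes under alternatives, 2478 kept their side of the threshold, 262 were no longer called and 57 became called. DESeq2 called 577 genes jointly higher and 548 lower, against 360 and 289 in edgeR; 136 and 174 stage differences, against 71 and 63; 239 and 287 in spleen alone, against 75 and 93; and 189 and 252 for the Foxp3+ stages against pre-Tregs, against 14 and 14. With no count filter the stage differences numbered 174 and 207, the splenic calls 204 and 271 and the calls against pre-Tregs 58 and 93. The mean of the 2 stage contrasts gave 463 jointly lower. Splenic Tregs alone gave 75 and 93 where the joint fit gave 360 and 289. Against pre-Tregs limma-voom gave 5 and 1. The cause of these moves was not tested.

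Replicate numbers were not shown to pair the samples: the deviations of same-numbered knockout and wild-type libraries correlated at −0.0326 in de novo Tregs and −0.108 in spleen. With the replicate block 189 genes were jointly higher and 142 lower, 145 and 216 were called in spleen, and 1 and 1 against pre-Tregs. A crossed replicate block, chosen after seeing the data, gave 191 jointly lower and, in spleen, 346 and 457.

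Leaving out 1 library gave 169 to 424 jointly higher and 115 to 369 lower genes, 18 to 148 and 3 to 314 stage differences, 238 to 330 and 289 to 442 in de novo Tregs, 81 to 1078 and 139 to 1430 in spleen, and 1 to 399 and 1 to 303 against pre-Tregs. Where this left 1 library in a group, that library was assumed to vary like the other groups. Genes near the floor of 3 counts per library are limited by depth.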
